A study of Mus musculus with 2 samples.

Results

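The respiratory chain subunits are the protein parts of the 5 enzyme complexes in the inner mitochondrial membrane, and their genes were taken by symbol: the complex I genes beginning Ndufa, Ndufb, Ndufs, Ndufv and Ndufc without the Ndufaf assembly factors, the 4 Sdh genes, the Uqcr genes, the Cox4i to Cox8 genes, the Atp5 genes and the protein-coding genes of the mitochondrial genome. The rule gave 99 of 32285 listed genes, 86 nuclear and 13 mitochondrial. All 99 had UMIs, the tags that count single captured transcripts. Cyc1, a subunit of complex III, lies outside the rule and was counted with other chain genes.

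The droplet single-cell libraries were made from the lower lobe of the left lung. The donors were males of the outbred ICR mouse stock, aged 6 to 8 weeks. All mice had received lipopolysaccharide (LPS), a bacterial wall component that inflames the lung. The LPS library had LPS alone, and the LPS_MCZ library had LPS and miconazole (MCZ), an azole antifungal given into the peritoneum, with 0.2 mg/kg stated in the label of the sample but 1 mg/kg in its protocol. Tissue of a whole group of mice went into each library, so there were no replicates, no test was possible, and treatment cannot be told apart from library. There was no untreated group.

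Electrons from NADH enter the chain at complex I and those from succinate at complex II, pass to complex III and then to complex IV, which reduces oxygen. Complex V uses the proton gradient that complexes I, III and IV build to make ATP. The mitochondrial genome encodes core subunits of complexes I, III, IV and V, and none of complex II, while the nucleus encodes all the others. Mature neutrophils are known for few mitochondria and a reliance on glycolysis, whereas alveolar macrophages, the resident phagocytes of the airspace, are known for oxidative metabolism.

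The 86 nuclear genes comprised 37 of complex I, 4 of complex II, 8 of complex III, 20 of complex IV and 17 of complex V, with Ndufa4 and Ndufa4l2 counted in complex IV. They lay on 19 chromosomes. The 13 mitochondrial genes comprised 7 of complex I, 1 of complex III, 3 of complex IV and 2 of complex V. In the mm10 annotation 1 nuclear member overlapped another listed gene on the same strand (Ndufa13 with Yjefn3), and 28 overlapped one on the other strand.

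After filtering, 12075 LPS cells and 8314 LPS_MCZ cells were kept, at medians of 5809 and 6180 UMIs per cell. Cells were clustered without the member genes, and 14 classes of at least 50 cells were named from marker genes; all markers had UMIs in both libraries in 13 of them, and 4 of 5 in eosinophil-like cells. Clusters 0, 8, 18, 26, 27 and 28 stayed unnamed. Cluster 0 lay nearest to neutrophils but had Treml4, a nonclassical monocyte marker, among its leading genes, and it held 331 LPS and 2845 LPS_MCZ cells, so neutrophil values are given beside it. The median of cluster 8 was 725 UMIs, and it was led by the heart-muscle genes Myl7 and Tnni3. The libraries shared 243 barcode sequences. The neutrophil genes S100a8 and S100a9 took 10.2% of UMIs of kept LPS cells and 9.57% of LPS_MCZ cells. Gm42418, which overlaps ribosomal RNA, took 0.498% and 1.13%.

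Neutrophil-like cells carried the smallest share of subunit transcripts among the 5 main classes, in both libraries. The nuclear members took 0.331% [0.330, 0.333] of their UMIs in the LPS library (7217 cells) and 0.353% [0.351, 0.356] in the LPS_MCZ library (2858 cells). Brackets hold 95% intervals, which cover counting error only and not variation between mice. In classical monocyte-like cells the nuclear share was 1.77% [1.76, 1.77] in LPS and 1.76% [1.76, 1.77] in LPS_MCZ, the highest of all named classes. Alveolar macrophage-like cells had 1.06% [1.06, 1.07] and 1.15% [1.14, 1.16]. T cell-like cells followed with 0.981% [0.973, 0.989] and 0.972% [0.959, 0.984], and vascular endothelial-like cells with 0.855% [0.839, 0.872] and 0.840% [0.824, 0.857].

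The order of the mitochondrial members was another one. Alveolar macrophage-like cells had the highest share of the named classes, 3.19% [3.18, 3.21] in LPS and 3.59% [3.57, 3.60] in LPS_MCZ. T cell-like cells had 2.22% and 2.32%, classical monocyte-like cells 1.94% and 2.09%, and vascular endothelial-like cells 1.92% and 2.15%. The share of neutrophil-like cells was 0.232% [0.231, 0.233] and 0.292% [0.289, 0.294]. In LPS, the classical monocyte-like and endothelial intervals met, so those neighbours in the order did not differ beyond counting error.

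**Figure D1:**
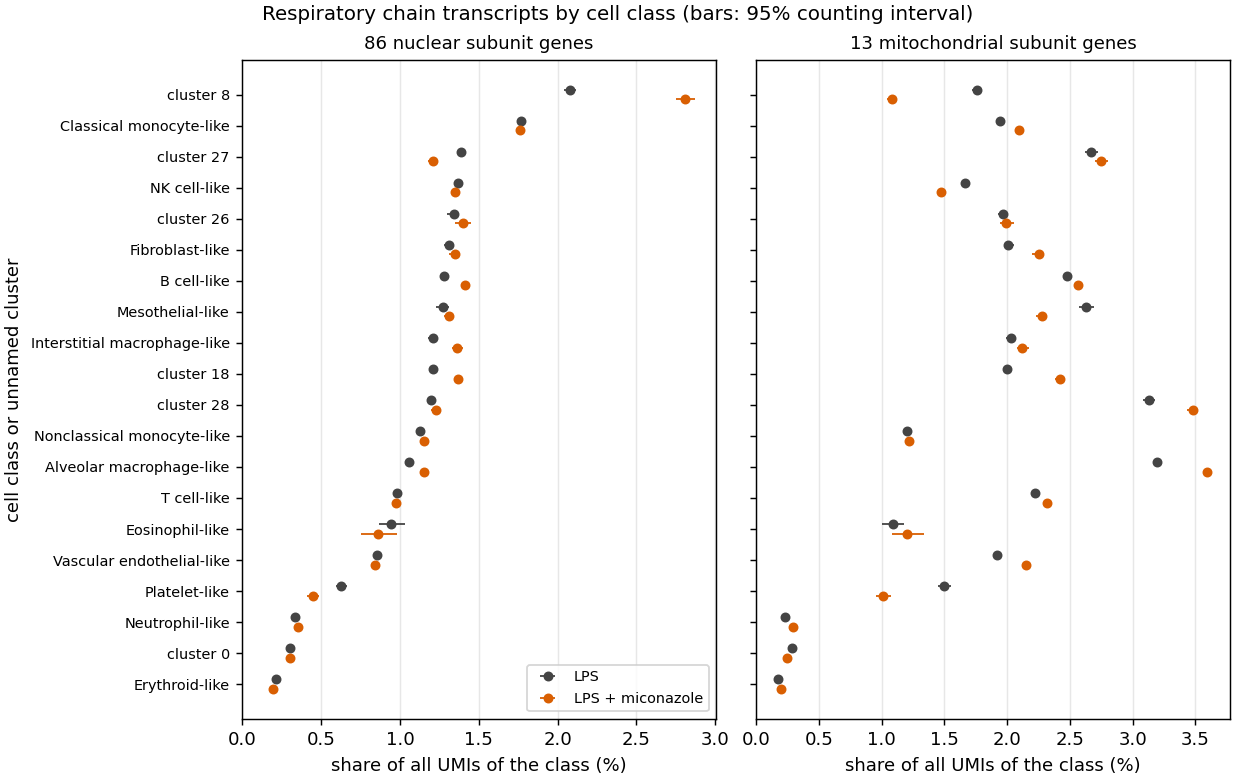
Share of all UMIs of a class (x axis, percent) taken by the 86 nuclear genes (left) and the 13 mitochondrial genes (right), with 1 point per class or unnamed cluster and library and bars for the 95% counting interval. Neutrophil-like cells, cluster 0 and erythroid-like cells lie at the bottom of both panels, and classical monocyte-like cells, the highest named class in the left panel, lie below alveolar macrophage-like cells in the right one.

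The balance of the parts therefore differed between classes. For 100 nuclear UMIs there were 70.0 mitochondrial UMIs in LPS neutrophil-like cells and 82.6 in LPS_MCZ ones, against 109.9 and 119 in classical monocyte-like cells. The figure was 226 and 239 in T cell-like cells and 301 and 312 in alveolar macrophage-like cells. Across the 14 named classes the shares of the parts correlated at Pearson 0.66 and Spearman 0.53 in LPS and at 0.69 and 0.56 in LPS_MCZ. These correlations are a description, since all classes of a library share its depth and free RNA.

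NK cell-like cells had a nuclear share of 1.37% in LPS and 1.35% in LPS_MCZ, and B cell-like cells 1.28% and 1.41%. Nonclassical monocyte-like cells had 1.13% and 1.15%, with mitochondrial shares of 1.20% and 1.22%. Fibroblast-like, interstitial macrophage-like and mesothelial-like cells had nuclear shares of 1.21% to 1.31% in LPS and 1.31% to 1.36% in LPS_MCZ. Erythroid-like cells, which lose mitochondria as they mature, had the lowest values, a nuclear share of 0.216% and 0.197% and a mitochondrial share of 0.174% and 0.198%. In that class free RNA, estimated from S100a8, S100a9 and Retnlg, came to 73.8% and 63.9% of UMIs. The globin genes Hba-a1 and Hbb-bs had 223178 and 246923 of the 988067 UMIs in LPS. In LPS_MCZ they had 189580 and 219992 of 787074. Added to the estimate, these counts exceed all UMIs of the class, so the estimate cannot be read as a share of free RNA there. Globin also lowers the share left for all other genes. The parts of free RNA and globin in the level were not tested.

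Compared with neutrophil-like cells of the same library, the summed nuclear share was 5.33-fold [5.29, 5.36] higher in LPS classical monocyte-like cells and 4.99-fold [4.95, 5.03] in LPS_MCZ ones. It was 3.21-fold and 3.25-fold in alveolar macrophage-like cells, 2.96-fold and 2.75-fold in T cell-like cells and 2.58-fold and 2.38-fold in endothelial cells. The summed mitochondrial share was 13.8-fold [13.7, 13.9] and 12.3-fold [12.2, 12.4] higher in alveolar macrophage-like cells. In classical monocyte-like cells 80 of 81 nuclear members were above their neutrophil level in LPS, where 76.3% of all genes measured were. S100a8 and S100a9 alone took 18.1% of neutrophil UMIs in LPS and 19.4% in LPS_MCZ, which lowers the share left for all other genes.

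Neutrophil-like cells were not uniform. Cluster 6, led by the granule genes Camp and Ltf of immature neutrophils, had the highest nuclear share of the 5 neutrophil-like clusters, 0.483% [0.478, 0.488] in LPS and 0.511% [0.502, 0.520] in LPS_MCZ. Next came cluster 3, with Mmp8 and Retnlg in the lead, at 0.414% and 0.392%. Cluster 2, led by the chemokine genes Ccl3 and Ccl4, had the lowest, 0.249% [0.246, 0.252] and 0.270% [0.265, 0.275]. In LPS_MCZ cluster 4 was at 0.275% [0.269, 0.281], so there the lowest place was not beyond counting error. The mitochondrial share had the same top and bottom, 0.335% and 0.384% in cluster 6 against 0.182% and 0.210% in cluster 2. Median UMIs were also highest in cluster 6, at 8925 and 10652, and lowest in cluster 2 for LPS, at 4396; the part of depth in this order was not tested. Cluster 0 had nuclear shares of 0.302% and 0.299%.

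The members within a complex did not lie equally low in neutrophil-like cells. Levels are counts scaled to the total UMIs (CPM); the 3′ assay counts transcripts once each, so CPM is not scaled by transcript length. Cox8a, a small subunit of complex IV, had 409 CPM in LPS neutrophil-like cells and 387 in LPS_MCZ ones. That was close to its 434 and 431 CPM in alveolar macrophage-like cells and 393 and 364 CPM in T cell-like cells, and its highest level was 774 and 734 CPM in classical monocyte-like cells. Ndufb1-ps led complex I in neutrophil-like cells with 124 CPM over both libraries, Sdhb (the iron-sulfur subunit) led complex II with 22.0, Uqcrq led complex III with 109 and Atp5l (subunit g) led complex V with 187. Cox8c, a testis isoform, had 0 UMIs there.

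**Figure D2:**
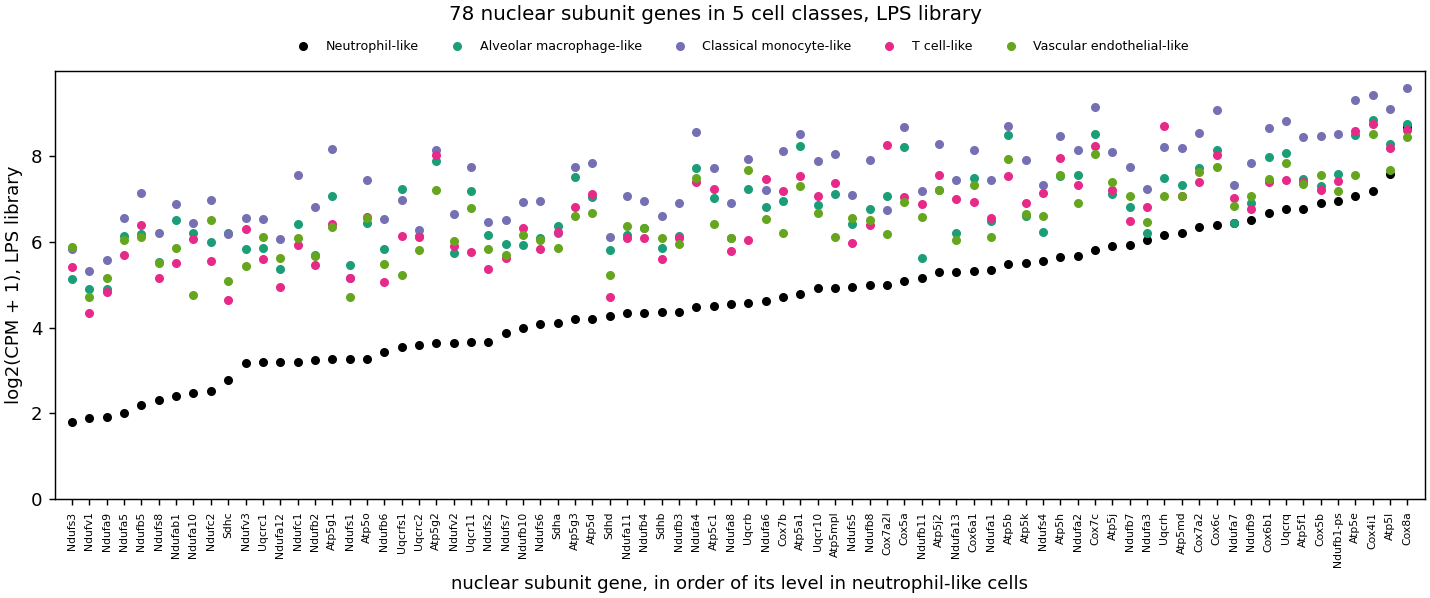
Level of 78 nuclear members as log2(CPM + 1) in the LPS library (y axis) for 5 classes, with genes in order of their neutrophil-like level (x axis). Neutrophil-like points rise from left to right while the points of the other classes stay in a narrower band, and at Cox8a, on the far right, neutrophil-like cells reach the levels of the other classes apart from classical monocyte-like cells.

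Over these 5 classes 78 nuclear members had at least 50 UMIs in each class, and their range of log2(CPM + 1) had a median of 2.81. No member reached that minimum in all 14 named classes, so this set of classes was chosen after the values were seen. Atp5g1, which encodes the proton-carrying c subunit of complex V, varied most, with a range of 4.92. It had 8.60 CPM in LPS neutrophil-like cells and 9.82 in LPS_MCZ ones, against 289.6 and 328 CPM in classical monocyte-like cells. Then came 4 complex I genes, Ndufb5 (range 4.63), Ndufa5 (4.52), Ndufc2 (4.46) and Ndufab1 (4.36), the last of which encodes the mitochondrial acyl carrier protein. Ndufb5 was at 3.58 CPM in LPS neutrophil-like cells and at 141 CPM in classical monocyte-like cells of either library.

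The members that varied least were Ndufa7 (range 0.92), Ndufa3 (1.06), Cox8a (1.11), Ndufb9 (1.28) and Atp5l (1.48). Ndufa7 had 85.8 and 80.8 CPM in neutrophil-like cells, against 85.5 and 91.7 CPM in alveolar macrophage-like cells. All 10 of these genes, the most and the least variable, peaked in classical monocyte-like cells. Genes such as Atp5g1 have near-identical copies in the genome, and the treatment of reads shared with such copies is not known here.

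Complexes I, IV and V made up most of the nuclear total in every main class. In LPS neutrophil-like cells complex I made up 28.7% of nuclear member UMIs, complex II 1.80%, complex III 8.19%, complex IV 34.6% and complex V 26.7%. In LPS alveolar macrophage-like cells these were 26.3%, 2.52%, 10.7%, 29.6% and 30.9%. Of the 5 main classes in LPS, neutrophil-like cells had the largest part in complex IV and the smallest in complexes III and V. Of the mitochondrial UMIs of LPS neutrophil-like cells 58.1% were from the 3 complex IV genes, against 52.6% in classical monocyte-like cells, 48.0% in T cell-like cells and 48.7% in alveolar macrophage-like cells.

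Promoters are shown for complex IV members whose patterns differ: Cox6a1, Cox8a and Cox7a2, found in all main classes, and Cox7a1, the muscle isoform, whose CPM over both libraries was highest in cluster 8. The sequences are from RefSeq on GRCm38.p6, the mm10 build, from 170 bases before to 30 bases after the start, 5′ to 3′. Capitals mark the NRF1 core GCGCATGC, the ETS core CCGGAAG or the YY1 core AAGATGGC on either strand.
Cox6a1, chr5:115348929-115349128, minus strand: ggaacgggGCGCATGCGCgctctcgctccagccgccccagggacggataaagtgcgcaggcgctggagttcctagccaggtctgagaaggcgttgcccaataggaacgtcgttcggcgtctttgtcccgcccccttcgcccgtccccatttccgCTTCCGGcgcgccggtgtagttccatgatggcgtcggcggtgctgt
Cox8a, chr19:7217587-7217786, minus strand: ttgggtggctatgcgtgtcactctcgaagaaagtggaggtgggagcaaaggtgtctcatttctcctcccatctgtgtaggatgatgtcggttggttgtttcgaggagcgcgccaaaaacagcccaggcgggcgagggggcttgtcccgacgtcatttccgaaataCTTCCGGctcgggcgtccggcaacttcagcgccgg
Cox7a2, chr9:79759824-79760023, minus strand: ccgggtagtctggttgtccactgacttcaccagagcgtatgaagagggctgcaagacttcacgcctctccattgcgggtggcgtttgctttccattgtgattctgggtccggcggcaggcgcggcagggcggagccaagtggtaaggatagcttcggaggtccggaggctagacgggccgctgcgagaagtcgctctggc
Cox7a1, chr7:30184001-30184200, plus strand: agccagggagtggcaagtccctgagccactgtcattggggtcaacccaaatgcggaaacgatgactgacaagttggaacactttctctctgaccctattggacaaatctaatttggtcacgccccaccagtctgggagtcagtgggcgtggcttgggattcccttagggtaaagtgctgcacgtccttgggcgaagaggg

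The window of Cox6a1 holds the NRF1 core on both strands, as overlapping matches, and an ETS core, and that of Cox8a an ETS core. Neither Cox7a window holds any of the 3 cores. NRF1, ETS family and YY1 factors are textbook regulators of nuclear respiratory genes. Of the 86 nuclear members 70 matched the table, with 75 promoters of 250 bases before and 50 after the start. The NRF1 core was in 13.3% of these against 2.71% of all 32851 promoters, the ETS core in 22.7% against 8.86%, and the YY1 core in 13.3% against 2.75%. A match is a description of the letters and no evidence of binding.

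Between the libraries, the nuclear members of neutrophil-like cells had a median ratio close to that of all genes, and a smaller share of them was past 0.5. Ratios are log2 of LPS_MCZ over LPS, with 1 CPM added to single genes. The summed nuclear ratio was 0.09 [0.08, 0.10]. The median over the 79 nuclear members with at least 50 UMIs was 0.16, and over all 10021 such genes it was 0.11. By more than 0.5, 4 nuclear members were higher and 0 lower, where 12.1% of all genes were higher and 5.52% lower. Those 4 were Ndufb5 (0.65 [0.46, 1.13]), Ndufs8 (0.55 [0.33, 0.99]), Ndufv3 (0.54 [0.37, 0.83]) and Uqcr11 (0.51 [0.35, 0.73]), and all were at 16.9 CPM or below in both libraries. With 5 CPM added in place of 1, 0 nuclear and 0 mitochondrial members of these cells were past 0.5, and Ndufb5 was at 0.39 and Ndufs8 at 0.33. The shares of all genes above are for 1 CPM, and those for 5 CPM are not given here. Ndufs8 encodes an iron-sulfur core subunit of complex I, with 3.95 CPM in LPS and 6.25 in LPS_MCZ. The lowest were Cox4i2 (−0.44), Ndufa9 (−0.35) and Ndufa2 (−0.31 [−0.43, −0.21]). By complex, the summed ratio was 0.26 for complex II, 0.14 for complex V, 0.12 for complex I, 0.11 for complex III and 0.01 for complex IV.

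The mitochondrial members of neutrophil-like cells were further apart, at a summed ratio of 0.33 [0.32, 0.34]. All 13 genes were above 0, where 6321 of all 10021 genes measured were. mt-Co1, the catalytic subunit of complex IV, was at 478 CPM in LPS and 675 in LPS_MCZ (0.50 [0.47, 0.53]). mt-Co2 was at 441 and 545 CPM (0.30), mt-Co3 at 428 and 504 (0.23), and mt-Atp6, a proton channel subunit of complex V, at 429 and 514 (0.26). mt-Cytb, the cytochrome b of complex III, was at 178 and 211 CPM (0.25). Among complex I genes mt-Nd4 was at 139 and 176 CPM (0.34), mt-Nd1 at 80.3 and 96.1 (0.26), mt-Nd2 at 75.5 and 99.4 (0.39) and mt-Nd5 at 28.4 and 36.8 (0.36). The thinnest were mt-Nd3 (0.16 [−0.01, 0.34]), mt-Nd4l (0.40), mt-Atp8 (0.55 [0.39, 0.78]) and mt-Nd6 (0.51 [0.26, 1.08]), and of the 13 mt-Atp8 and mt-Nd6 were past 0.5 with 1 CPM added. Gm42418 took 0.337% of neutrophil-like UMIs in LPS and 0.609% in LPS_MCZ. With mitochondrial members, S100a8, S100a9 and Gm42418 left out of the denominator, the summed mitochondrial ratio was 0.36. The part of Gm42418 alone was not tested.

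In cluster 0 the sum differed in the other direction. Its summed mitochondrial ratio was −0.22 [−0.27, −0.18], from 0.287% in LPS to 0.245% in LPS_MCZ. In this cluster 2 of 13 mitochondrial genes were above 0, where 4157 of all 7090 genes measured were. Its typical cell went the other way, since the median share per cell was 0.153% in LPS and 0.171% in LPS_MCZ and both quartiles were also higher in LPS_MCZ. In neutrophil-like cells the median per cell was 0.172% and 0.237%. The 5 neutrophil-like clusters each had a ratio above 0: 0.34 in cluster 1, 0.21 in cluster 2, 0.36 in cluster 3, 0.12 in cluster 4 and 0.19 in cluster 6. With cluster 0 counted as neutrophil-like, the mitochondrial ratio was 0.23 and the nuclear one 0.005. The nuclear ratio did not keep its sign over these clusters, at −0.07 in cluster 1 and −0.08 in cluster 3 against 0.12 in cluster 2, 0.06 in cluster 4 and 0.08 in cluster 6.

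**Figure D3:**
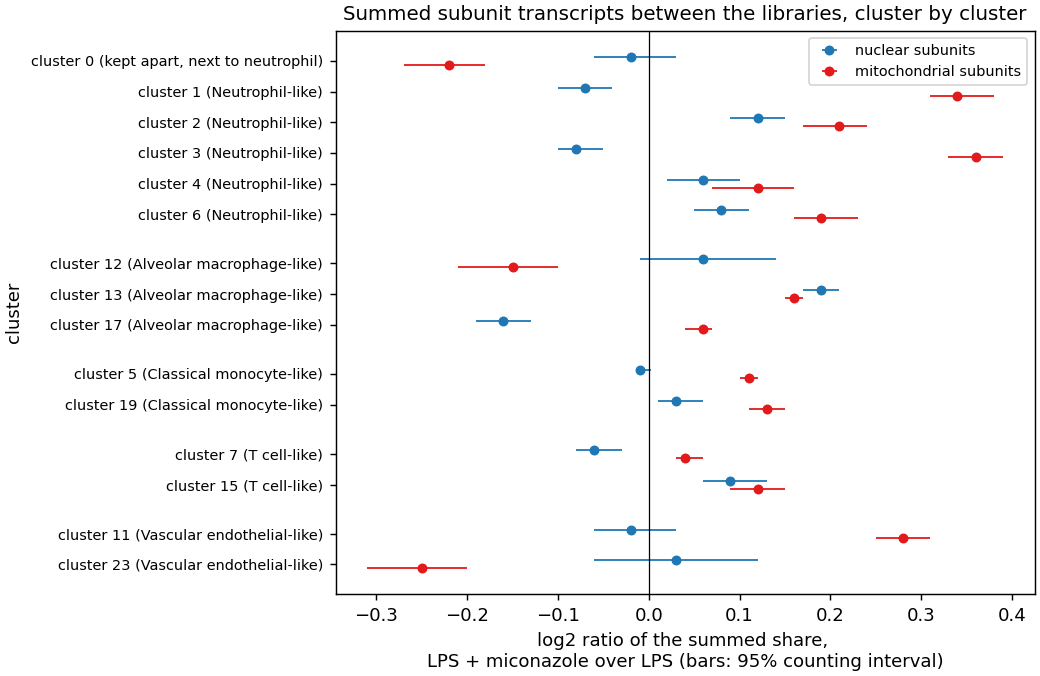
Log2 ratio of the summed share in LPS_MCZ over LPS (x axis) for each cluster of the 5 main classes and for cluster 0, with nuclear members in blue, mitochondrial members in red and bars for the 95% counting interval. Red points lie right of 0 in every cluster except 0, 12 and 23, and blue points lie on both sides of 0 within each class.

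In alveolar macrophage-like cells (598 LPS and 413 LPS_MCZ cells) both parts had a slightly higher summed share in the LPS_MCZ library. The summed nuclear ratio was 0.11 [0.10, 0.13]. Of all 9802 genes measured 5210 lay above 0, at a median of 0.02. Of the 80 nuclear members 67 lay above 0, at a median of 0.13. None was past 0.5 in either direction, where 11.6% of all genes were higher and 5.76% lower. The highest were Ndufs8 (45.2 CPM in LPS and 63.7 in LPS_MCZ, 0.49 [0.29, 0.70]) and Ndufs3, another core subunit of complex I (34.4 and 46.9 CPM, 0.44 [0.21, 0.69]). Uqcrfs1, the Rieske iron-sulfur protein of complex III, was the lowest, at 150 and 108 CPM (−0.47 [−0.61, −0.34]), followed by Cox7a1 (−0.34 [−1.31, 0.41]) and Atp5md (−0.12). Complex II was at 0.23 [0.15, 0.32], complex I at 0.16 and complex III at −0.01.

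The mitochondrial sum in these macrophages had a ratio of 0.17 [0.16, 0.18]. All 13 genes were above 0, where 5210 of all 9802 genes measured were. mt-Atp8 was highest (164 and 248 CPM, 0.59 [0.49, 0.70]), followed by mt-Nd5 (378 and 511 CPM, 0.44 [0.37, 0.51]) and mt-Nd2 (1603 and 2102 CPM, 0.39). mt-Nd3 (0.25), mt-Nd1 and mt-Nd4l (both 0.23), mt-Co1 and mt-Nd4 (both 0.22) were in the middle. mt-Atp6 (0.12), mt-Co2 and mt-Cytb (both 0.11), mt-Nd6 (0.09 [−0.19, 0.37]) and mt-Co3 (0.08) were lowest.

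The macrophage-like clusters did not show the class value. Cluster 13, led by Slc7a2 and Lpl, held 290 LPS and 92 LPS_MCZ cells, and its nuclear share was 1.01% and 1.15% (0.19 [0.17, 0.21]). Cluster 17, led by Kcnip4, Plet1 and Mrc1, held 64 and 176 cells, and its nuclear share was 1.28% and 1.14% (−0.16 [−0.19, −0.13]). The mitochondrial ratio was 0.16 in cluster 13 and 0.06 in cluster 17. Cluster 12, with median UMIs of 1010 and 712 and the heat-shock genes Hspa1a and Hspa1b in the lead, had a nuclear ratio of 0.06 [−0.01, 0.14] and a mitochondrial one of −0.15 [−0.21, −0.10]. With each cell weighted equally the nuclear ratio of the class was 0.01. Gm42418 made up 0.909% of these LPS cells' UMIs and 2.90% of the LPS_MCZ cells'. With mitochondrial members, S100a8, S100a9 and Gm42418 left out of the denominator, the mitochondrial ratio of the class was 0.21 and the nuclear one 0.15. The part of Gm42418 alone was not tested.

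In classical monocyte-like cells (896 and 646 cells) the nuclear sum was at the same level in both libraries, with a ratio of −0.002 [−0.01, 0.01] and a median of 0.02 over 80 members, beside 0.01 for all genes. None of the 80 was past 0.5, where 3.80% of all genes were higher and 5.13% lower. Ndufs1, the largest complex I core subunit, was highest at 0.33 [0.17, 0.52], followed by Ndufa12 at 0.26 among nuclear members. Cox6b2 was lowest at −0.43, and Cox7a2l, which helps to join complexes III and IV into supercomplexes, was at −0.30 [−0.42, −0.19]. Cox7a2l was also low in neutrophil-like cells, at −0.28 [−0.43, −0.14]. Ndufv1, the NADH-binding subunit, was at −0.20. The mitochondrial sum was at 0.11 [0.10, 0.12], with mt-Atp8 at 0.35, mt-Nd2 at 0.27, mt-Nd4l at 0.23, mt-Co1 at 0.18 and mt-Nd1 at 0.15. mt-Co3 (−0.005) and mt-Nd3 (−0.003) were at the same level in both libraries, and the other 6 lay between 0.06 and 0.12.

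T cell-like cells (917 and 309 cells) gave a nuclear ratio of −0.01 [−0.04, 0.01] and a mitochondrial one of 0.07 [0.05, 0.08]. None of the 78 nuclear members was past 0.5, where 6.45% of all genes were higher and 4.82% lower. Ndufa9 (0.40), Sdha, the flavoprotein of complex II (0.30), and mt-Atp8 (0.32) were highest, and Atp5k and Cox7a2 (both −0.31) and Ndufs5 (−0.30) lowest. The nuclear ratio was −0.06 in cluster 7, led by Lef1, and 0.09 in cluster 15, led by Ctla4 and Ikzf2. The latter pair marks regulatory T cells.

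Vascular endothelial-like cells (249 and 222 cells) had a nuclear ratio of −0.03 [−0.07, 0.01] and a mitochondrial one of 0.17 [0.14, 0.19]. Of 78 nuclear members 2 were higher by more than 0.5 and 0 lower, where 11.7% of all genes were higher and 7.91% lower. Those were Ndufa10 (0.72 [0.08, 1.41], from 33 and 53 UMIs) and Ndufs1 (0.59 [−0.07, 1.30]). The mitochondrial member mt-Atp8 was at 0.47 [0.19, 0.76]. Ndufs3 (−0.45), Ndufa12 (−0.35) and then Atp5o and Ndufc2 (both −0.31) were among the lowest, each with an interval that holds 0. Cluster 11, led by Lyve1, had a mitochondrial ratio of 0.28 [0.25, 0.31], and cluster 23 had −0.25. S100a8 and S100a9 took 6.15% of UMIs in LPS cells of cluster 11 and 0.567% in those of cluster 23. Estimated free RNA made up 46.5% of endothelial UMIs in LPS and 41.0% in LPS_MCZ, and with it subtracted the mitochondrial ratio was 0.12.

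**Figure D4:**
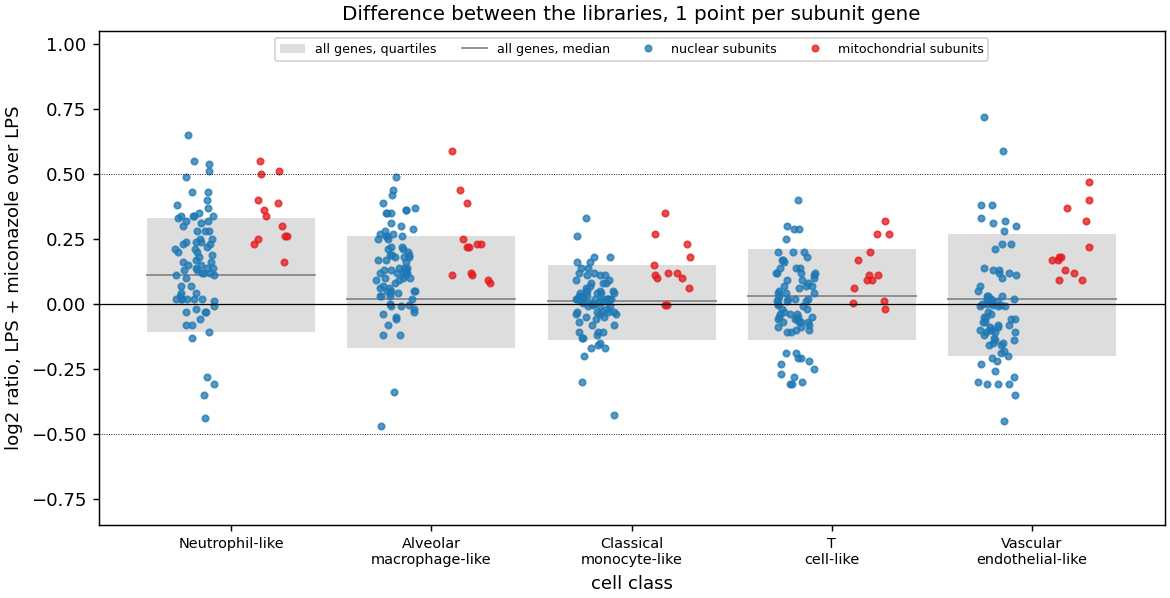
Log2 ratio of LPS_MCZ over LPS (y axis) for each nuclear (blue) and mitochondrial (red) member with at least 50 UMIs, in 5 classes; grey bands and lines show the quartiles and the median of all genes, and dotted lines mark 0.5 and −0.5. Nearly all red points lie above 0, mt-Co3 and mt-Nd3 of classical monocyte-like cells and mt-Co3 of T cell-like cells being the ones below. Blue points centre near the median of all genes except in alveolar macrophage-like cells, where their median is 0.13 against 0.02.

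Over the 14 named classes the mitochondrial interval lay above 0 in 9, below 0 in 3 and across 0 in 2. The 3 below were NK cell-like (−0.18 [−0.20, −0.15]), mesothelial-like (−0.21 [−0.25, −0.17]) and platelet-like cells (−0.57 [−0.67, −0.47]). Of the 9 above, fibroblast-like and interstitial macrophage-like cells had a lower median mitochondrial share per cell in LPS_MCZ. It was 1.75% in LPS and 1.72% in LPS_MCZ for the former and 1.90% and 1.84% for the latter. The others of the 9 had a higher median per cell in LPS_MCZ. Estimated free RNA of NK cell-like cells was 9.52% in LPS and 21.7% in LPS_MCZ, and its part was not tested. Platelet-like cells numbered 59 and 27, and their estimated free RNA was 90% in both libraries. S100a8 and S100a9 took 14.3% and 15.1% of their UMIs, above the 10.2% and 9.57% of all kept cells. The estimate can therefore not be read as a share of free RNA in this class. For the nuclear sum the interval lay above 0 in 4, below in 2 and across 0 in 8. B cell-like cells (0.14 [0.11, 0.17]) and interstitial macrophage-like cells (0.18 [0.12, 0.23]) were the other 2 above. Interstitial macrophage-like cells numbered 51 and 35. Their nuclear median of 0.22 and mitochondrial median of 0.10 stood beside 0.17 for all 2867 genes measured. Of all genes 27.2% were higher by more than 0.5 in that class. The median nuclear share per cell of B cell-like cells was lower in LPS_MCZ, at 1.20% and 1.07%, against the direction of the sum. The nuclear intervals below 0 were those of erythroid-like (−0.13) and platelet-like cells (−0.49).

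The mitochondrial genes did not differ in proportion. mt-Atp8 and mt-Atp6, both of complex V, are read from a shared mRNA, and their coding sequences overlap by 43 bases on the same strand. They are shown because mt-Atp8 was the member with the largest ratio in alveolar macrophage-like and classical monocyte-like cells; capitals mark the overlap, in GENCODE vM21 transcripts of mm10 (plus strand).
mt-Atp8, chrM:7766-7969: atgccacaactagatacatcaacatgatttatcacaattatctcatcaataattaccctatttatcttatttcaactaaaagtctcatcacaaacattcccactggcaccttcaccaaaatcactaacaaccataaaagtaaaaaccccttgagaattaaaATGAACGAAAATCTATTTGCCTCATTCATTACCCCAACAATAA
mt-Atp6, first 60 bases, chrM:7927-7986: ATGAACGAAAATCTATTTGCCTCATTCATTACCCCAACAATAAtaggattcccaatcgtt

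As a share of the class's mitochondrial UMIs, mt-Atp8 was higher in LPS_MCZ in 11 of 11 named classes where it had at least 50 UMIs, with a median log2 ratio of 0.30 and a range of 0.05 to 0.76. In alveolar macrophage-like cells it went from 0.514% to 0.692%, and in NK cell-like cells from 0.464% to 0.784%. Over all kept cells mt-Atp8 had 5609 UMIs in LPS and 5772 in LPS_MCZ, against 205630 and 161951 for mt-Atp6. Since these genes share an mRNA, their counts cannot be read as levels of separate transcripts. How UMIs were divided between them was not tested. mt-Co1 was higher in 14 of 14 classes (median 0.11), at 20.6% and 23.2% in neutrophil-like cells. mt-Nd2 was higher in 12 of 13 (0.15), and mt-Nd5 in 11 of 12 (0.08). The interval lay above 0 in 6 of 11 classes for mt-Atp8, 9 of 14 for mt-Co1, 7 of 13 for mt-Nd2 and 3 of 12 for mt-Nd5. mt-Co3 was higher in 1 of 14 (−0.10) and its interval lay below 0 in 10, at 18.4% and 17.3% in neutrophil-like cells. mt-Nd4l (0.13) and mt-Nd6 (0.14) had positive medians, mt-Nd3 a median of −0.11, and mt-Nd1, mt-Nd4, mt-Cytb, mt-Co2 and mt-Atp6 medians of −0.03 to 0.03. The classes of a library share its preparation, so these counts over classes are not independent.

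Several complex IV subunits have isoforms restricted to certain tissues, and most of these were high in particular cells. Cox6a2, Cox7a1 and Cox8b are the heart and skeletal muscle isoforms of Cox6a1, Cox7a2 and Cox8a. In cluster 8, led by heart-muscle genes, Cox6a2 had 24 UMIs in LPS and 101 in LPS_MCZ, at 55.7 and 365 CPM. Cox7a1 had 15 and 61 UMIs there (34.8 and 221 CPM), and Cox8b 11 and 49 (25.5 and 177 CPM). Cox7a1 was also spread at low levels over other cells, with 52 and 38 UMIs in classical monocyte-like, 33 and 20 in alveolar macrophage-like and 27 and 20 in neutrophil-like cells. Over both libraries 60 Cox8b UMIs were in cluster 8, and no other cluster had over 3. These counts came from few cells, Cox6a2 from 3 LPS and 7 LPS_MCZ cells and Cox8b from 1 and 5, out of 398 and 221 in the cluster. Estimated free RNA of cluster 8 was 15.3% in LPS and 53.5% in LPS_MCZ, and its part in these differences was not tested. The nuclear ratio of cluster 8 was 0.43 [0.39, 0.48], its share being 2.08% and 2.81%, while the median nuclear share per cell was 1.95% and 1.90%. Its mitochondrial ratio was −0.71 [−0.77, −0.65].

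Cox6a2 was also present in cluster 18, led by the dendritic cell genes Ccl17, Ccl22 and Ccr7, with 88 UMIs in LPS and 76 in LPS_MCZ (93.6 and 106 CPM). Cox6a2 lies at chr7:128205435-128206387 (minus strand) and overlaps Itgad on the other strand, and whether counting used the strand is not known here. These UMIs fell in few cells. In LPS 76 of the 88 were in cells with a UMI of Siglech, a plasmacytoid dendritic cell marker, and in LPS_MCZ 75 of the 76. Of the 77 LPS cells in the cluster 10 had Cox6a2, and 7 of them had Siglech.

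**Figure D5:**
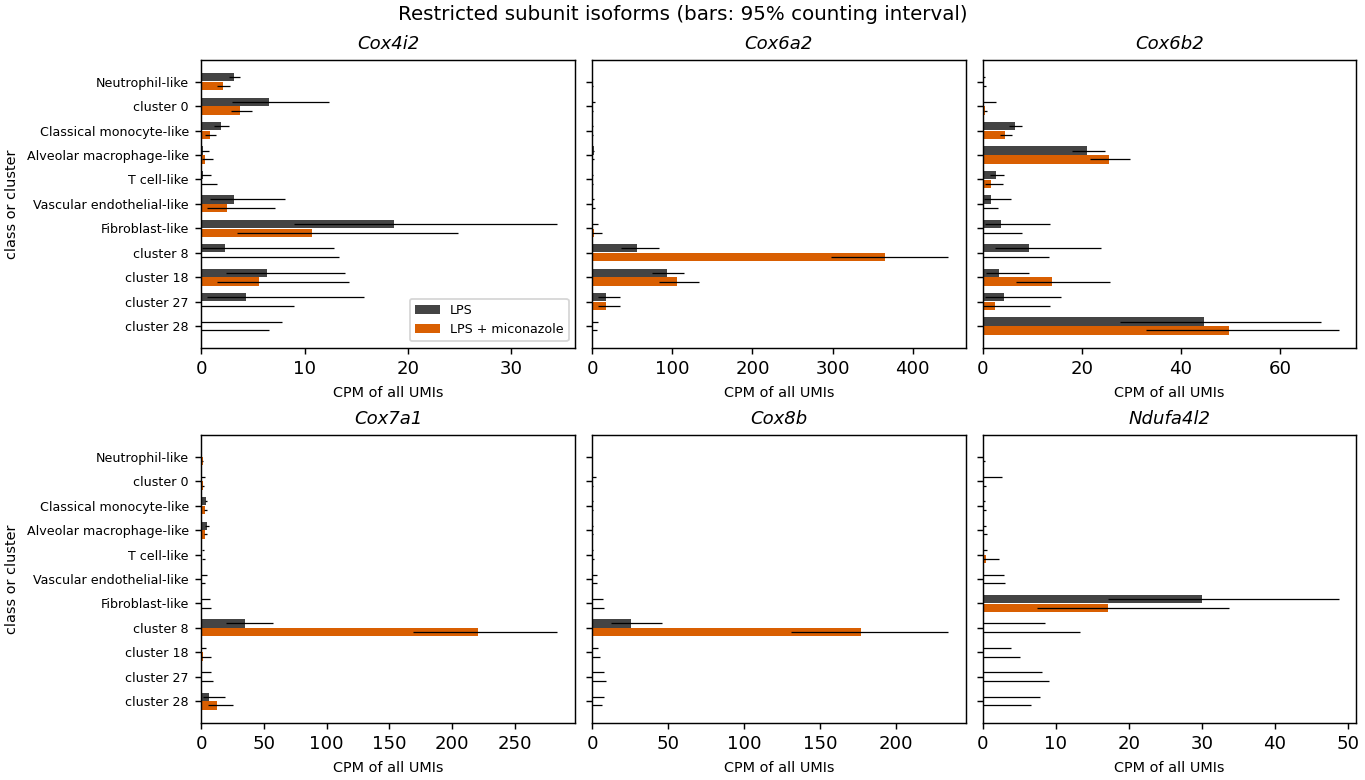
Level of 6 restricted isoforms in CPM (x axis, a separate scale per gene) in 11 classes or clusters, for both libraries, with bars for the 95% counting interval. Cox6a2 stands out in clusters 8 and 18, Cox7a1 and Cox8b in cluster 8, Cox6b2 in alveolar macrophage-like cells and cluster 28, and Ndufa4l2 in fibroblast-like cells.

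Cox6b2 (chr7:4751792-4753094, minus strand), known as the testis isoform of Cox6b1, had its most UMIs in alveolar macrophage-like cells, 167 in LPS and 164 in LPS_MCZ (21.1 and 25.4 CPM). Cluster 28 was at 44.7 and 49.7 CPM. Its nearest class is the alveolar macrophage, but it was led by Igha and the cell cycle gene Mki67. It stayed unnamed because its leading genes held more plasma cell markers. Classical monocyte-like cells were at 6.44 and 4.53 CPM, and neutrophil-like cells at 0.241 and 0.268 CPM. Within the macrophage class Cox6b2 was at 36.1 CPM in cluster 17, 28.6 in cluster 12 and 15.2 in cluster 13 over both libraries. Within the classical monocyte class it was at 10.8 CPM in cluster 19, led by the cell cycle gene Top2a, and 4.69 in cluster 5.

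Cox4i2 (chr2:152754173-152765037, plus strand), the oxygen-sensitive isoform of Cox4i1 known from lung, had 10 and 5 UMIs in fibroblast-like cells (18.7 and 10.7 CPM). They came from 3 and 2 cells, all with a UMI of the pericyte and fibroblast gene Pdgfrb. In platelet-like cells Cox4i2 had 7 UMIs in 4 LPS cells (33.9 CPM) and 0 in LPS_MCZ. In neutrophil-like cells it had 146 and 47 UMIs (3.20 and 2.10 CPM), against 1 and 0 in T cell-like cells. It was at 5.62 CPM in cluster 2 and 1.33 CPM in cluster 3. Cox4i1 was at 146 and 143 CPM in neutrophil-like cells. Ndufa4l2 (chr10:127514967-127517154, plus strand), a hypoxia-induced relative of Ndufa4 that overlaps Shmt2 on the other strand, had 16 and 8 UMIs in fibroblast-like cells and at most 2 in any other class. Cox7b2 had 1 UMI in neutrophil-like cells of the LPS library, and Cox8c 1 in alveolar macrophage-like cells of the LPS_MCZ library.

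Other genes of the pathway were described from lists, whose counts in alveolar macrophage-like cells stand beside 11.6% of all genes higher and 5.76% lower. In alveolar macrophage-like cells, 17 of 17 other chain genes were measured. The list's median was 0.02 and its summed ratio −0.08 [−0.13, −0.03]. Past 0.5 in size there were 0 higher and 1 lower. The lower one was Gpd2, the glycerol phosphate dehydrogenase that feeds electrons to ubiquinone, at 245 and 172 CPM (−0.51 [−0.62, −0.41]). Etfb, of the electron transfer flavoprotein, was the highest at 0.39, with Coq6 at 0.31 and Coq2 at −0.30. Of 45 assembly factors 4 were higher and 1 lower, with a median of 0.05: Surf1 (0.71) and Ndufaf7 (0.60) were the highest, and Atpaf1 (−0.53) and Cox11 (−0.36) the lowest. Of 21 genes of mitochondrial gene expression 1 was higher and 0 lower (median −0.08), Hsd17b10 at 0.53, with Elac2 at 0.24, Fastkd5 at −0.47 and Fastkd3 at −0.43.

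Among 21 regulators 1 was higher and 0 lower (median 0.05). It was Epas1, which encodes a hypoxia-inducible factor, at 8.73 and 20.3 CPM (1.13 [0.79, 1.66]). Epas1 is also an endothelial gene, among the leading genes of cluster 11. Bnip3 was at 0.48, Mcu, the calcium uniporter, at −0.37, and Hif1a at 275 and 231 CPM (−0.25 [−0.35, −0.16]). Of 17 tricarboxylic acid cycle genes 1 was higher and 0 lower (median 0.16), Suclg2 at 0.61, with Idh2 at 0.42 and Dld at −0.07. Of 78 mitochondrial ribosome genes 0 were higher and 1 lower (median −0.02), Mrpl52 at 251 and 142 CPM (−0.82 [−0.94, −0.71]), with Mrpl15 at −0.50, Mrpl42 at 0.46 and Mrpl48 at 0.45.

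In neutrophil-like cells the medians of these lists were 0.08 for 14 other chain genes, 0.19 for 31 assembly factors, −0.003 for 12 genes of mitochondrial expression, 0.26 for 19 regulators, 0.20 for 14 cycle genes and 0.18 for 66 ribosome genes, beside 0.11 for all genes. In the same order the summed ratios of the lists were 0.25, −0.17 [−0.20, −0.14], 0.02, 0.12, 0.39 and 0.10. The sum of the assembly factors thus went against their median. Of the cycle genes 4 were higher by more than 0.5 and 0 lower, where 12.1% of all genes were higher and 5.52% lower.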

How the data were processed

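Per the labels' protocols, lung lobes were digested with collagenases, Dispase and trypsin and loaded on the 10x 3′ V3 system. Per the file headers and the submitters' processing notes, the authors used bcl2fastq 2.20, Cell Ranger 7.0.0 and mm10; the deposited values are raw UMI counts per gene and cell, and the treatment of intronic reads is not known here. The deposited matrices held 12577 LPS and 8500 LPS_MCZ barcodes with 90597705 and 68467793 UMIs. Cells with at least 200 genes, 500 UMIs and at most 20% mitochondrial UMIs were kept. Scrublet called 1 and 0 cells against expected shares of 9.66% and 6.65%, so it did not work and doublets may remain; the called cell was removed. Clustering used scanpy 1.11.5 (2000 variable genes without members, 30 components, 15 neighbours, Leiden resolution 1.0). Classes were named from marker lists, so their names are rebuilt here.

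UMIs were summed per class and library, with exact 95% intervals that cover counting error only. Free RNA was estimated from S100a8, S100a9 and Retnlg. With 1 pooled library per group there was no test, and the ratio script was tested on simulated data. Genes with at least 50 UMIs in a class counted as measured. Members and lists were chosen with earlier results of these data known. Named were, per main class, the 3 highest and 3 lowest members by ratio; all mitochondrial members and tissue isoforms; the top member of each complex and the lowest nuclear member in neutrophil-like cells; the 5 most and 5 least variable members; and the 2 highest and 2 lowest genes of each other list in alveolar macrophage-like cells. Of the genes this rule names, 1 is not reported here. Members named beside these were chosen after their values were seen. Alternatives changed the cell filter, clustering, denominator, free RNA, doublets, weighting, depth, pseudocount and UMI minimum.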

Additional observations from a re-analysis of the deposited data

Results flagged for a closer look

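These summed log2 ratios of LPS_MCZ over LPS pointed in opposite directions in clusters or classes set side by side, and the difference between them was not tested. For nuclear members of the neutrophil-like clusters, clusters 2, 4 and 6 were at 0.12, 0.06 and 0.08 and clusters 1 and 3 at −0.07 and −0.08. For mitochondrial members, clusters 1, 2, 3, 4 and 6 were at 0.34, 0.21, 0.36, 0.12 and 0.19, and cluster 0, nearest to them, at −0.22. The opposite direction of cluster 0 held for the sum and not for its median share per cell, which was 0.153% in LPS and 0.171% in LPS_MCZ. Among alveolar macrophage-like clusters the nuclear members were at 0.19 in cluster 13 and −0.16 in cluster 17, and the mitochondrial members at 0.16 in cluster 13, 0.06 in cluster 17 and −0.15 in cluster 12. The nuclear members of T cell-like clusters 15 and 7 were at 0.09 and −0.06. The mitochondrial members of endothelial clusters 11 and 23 were at 0.28 and −0.25. NK cell-like, platelet-like and mesothelial-like cells had mitochondrial ratios of −0.18, −0.57 and −0.21 while 9 named classes were above 0.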

How the results depend on the processing

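No paired analysis was possible because each group has 1 library. In all 5 main classes the mitochondrial ratio stayed above 0 under every alternative run, over 0.23 to 0.38 in neutrophil-like, 0.12 to 0.21 in alveolar macrophage-like, 0.07 to 0.13 in classical monocyte-like, 0.01 to 0.08 in T cell-like and 0.11 to 0.24 in endothelial cells. The nuclear ratio stayed above 0 in neutrophil-like (0.005 to 0.12) and alveolar macrophage-like cells (0.01 to 0.15), and changed sign in the other 3 classes. The values below moved by more than the counting interval, and the cause was not tested. Values are mitochondrial, then nuclear, where both moved.

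With a stricter cell filter T cell-like cells were at 0.05 and −0.06, endothelial cells at 0.13 (mitochondrial), and neutrophil-like and classical monocyte-like cells at 0.06 and 0.01 (nuclear). With no mitochondrial limit T cell-like cells were at 0.01 and −0.04, endothelial cells at 0.21 and 0.02, and neutrophil-like and classical monocyte-like cells at 0.31 and 0.12 (mitochondrial). At resolution 0.5 neutrophil-like cells were at 0.23 and 0.005, T cell-like cells at 0.02 and −0.05, and endothelial cells at 0.12 (mitochondrial). With libraries clustered separately neutrophil-like cells were at 0.23 and 0.04, classical monocyte-like cells at 0.07 and −0.04, and T cell-like cells at 0.08 and −0.07. With members allowed in the clustering neutrophil-like cells were at 0.35 and 0.06 and classical monocyte-like cells at 0.12 (mitochondrial).

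With a denominator without mitochondrial members, S100a8, S100a9 and Gm42418, neutrophil-like cells were at 0.36 and 0.12, alveolar macrophage-like cells at 0.21 and 0.15, classical monocyte-like cells at 0.12 and 0.01, and T cell-like cells at 0.08 (mitochondrial). With free RNA subtracted alveolar macrophage-like cells were at 0.19 and 0.13, classical monocyte-like cells at 0.12 and 0.01, and endothelial cells at 0.12 (mitochondrial). With the highest doublet scores removed T cell-like cells were at 0.02 and −0.08, endothelial cells at 0.24 (mitochondrial) and classical monocyte-like cells at −0.01 (nuclear). With each cell weighted equally alveolar macrophage-like cells were at 0.12 and 0.01, neutrophil-like and endothelial cells at 0.37 and 0.11 (mitochondrial), and classical monocyte-like and T cell-like cells at −0.02 and −0.05 (nuclear).

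Thinned to 2000 UMIs per cell, neutrophil-like cells were at 0.38 and 0.12, classical monocyte-like cells at 0.13 and −0.04, endothelial cells at 0.20 and −0.14, and alveolar macrophage-like and T cell-like cells at 0.08 and −0.05 (nuclear); Cox6b2 in classical monocyte-like cells went from −0.43 to 0.25. Thinning left out 232 of 598 LPS and 138 of 413 LPS_MCZ alveolar macrophage-like cells. With cluster 0 counted as neutrophil-like, chosen after seeing the data, the ratios were 0.23 and 0.005. Over the alternatives the number of nuclear members higher by more than 0.5 ran from 0 to 6 in neutrophil-like and in alveolar macrophage-like cells, 0 to 3 in classical monocyte-like, 0 to 5 in T cell-like and 1 to 9 in endothelial cells. In the main run 12.1%, 11.6%, 3.80%, 6.45% and 11.7% of all genes were higher in these classes, in the same order. The shares of all genes under each alternative are not given here, so these ranges cannot be set against them. Isoforms with few UMIs are limited by depth.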
